A study of Homo sapiens with 8 samples.

Results

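The Ikaros family genes IKZF1, IKZF2 and IKZF3 were described through all accessible chromatin peaks that the authors' annotation assigned to them. Every peak with that gene symbol was taken, with no filter on its measured values, although the genes were chosen with earlier results of these data known. The peaks numbered 18 of 62528 in the deposited table: 7 for IKZF1, 2 for IKZF2 and 9 for IKZF3. JJN3 and KMS11 are established lines of human multiple myeloma, the malignancy of plasma cells, and their accessible chromatin was read by ATAC-seq, where a transposase tags DNA that is open. Each line was exposed for 48 h to the solvent DMSO, to pomalidomide (POM) at 200 nM, to GNE-781 at 40 nM or to both drugs at these doses, with 1 library per line and treatment. Cells of the design that overexpress BATF or eGFP were not analysed here. The comparison asks what either drug, or the pair, does to open chromatin.

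Ikaros (IKZF1), Helios (IKZF2) and Aiolos (IKZF3) are zinc finger transcription factors that bind DNA through fingers near the N terminus, pair with each other through fingers at the C terminus, and recruit chromatin remodelling complexes. Ikaros and Aiolos are needed for lymphocyte development and sustain IRF4 and MYC in myeloma cells, while Helios is best known in T cells. Pomalidomide binds cereblon, the substrate receptor of a ubiquitin ligase, and directs the Ikaros and Aiolos proteins to degradation. GNE-781 blocks the bromodomains of EP300 and CREBBP, acetyltransferases that act at enhancers. ATAC-seq reads the DNA of these genes, so the amounts of their RNA and protein were not measured. In a bulk culture, a larger share of cells with an open site and a more open site in each cell cannot be told apart.

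The 18 peaks are named here by the distance of their centre from the annotated start of their gene, in kb along the direction of transcription. All coordinates are in GRCh38. IKZF1 has its first annotated start at chr7:50304124, and its peaks lay at -3.6, +0.4, +4.7, +27.8, +30.9, +89.8 and +114.2 kb. The peaks at +0.4 kb (chr7:50304118-50305016) and +4.7 kb (chr7:50308518-50309086) were promoter peaks, meaning within 1000 bp of an annotated transcript start, and belong to different transcripts of the gene. The peak at -3.6 kb (chr7:50300403-50300646) was intergenic and upstream, and that at +114.2 kb (chr7:50418137-50418467) lay 13035 bp past the end of the gene. IKZF2 had a promoter peak at +0.5 kb (chr2:213151424-213152485) and 1 peak in the gene at +136.6 kb (chr2:213015689-213016048). IKZF3, which starts at chr17:39864188 and runs toward lower coordinates, had a promoter peak at 0 kb (chr17:39864012-39864443), 5 peaks in the gene from +11.7 to +94 kb and a trio around its 3′ end. The trio comprised +106.1 kb (chr17:39757996-39758274), in the last part of the gene, +108.1 kb (chr17:39755635-39756503), 1211 bp past its end, and +109.8 kb (chr17:39753967-39754870), 2844 bp past its end. The nearest other protein-coding gene in RefSeq is GRB7, an adaptor of receptor tyrosine kinases, whose body lay 6681 bp from the +109.8 kb peak. Which gene the trio regulates was not measured. An exon annotation was not used here, so exons, introns and untranslated regions were not assigned.

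The 2 RefSeq promoter windows of IKZF1 that meet its peaks are shown because 1 of its 2 promoter peaks, at +4.7 kb, passed the test of a line difference under pomalidomide. RefSeq (GRCh38.p14) windows were matched for 2 of the 3 genes, IKZF1 and IKZF2. Each window runs from 250 bases before to 50 bases after a gene start, on the plus strand for IKZF1. The first window, chr7:50304466-50304765, lies wholly inside the +0.4 kb peak and has a GC content of 71.0%. The second, chr7:50308450-50308749, shares 232 bp with the +4.7 kb peak and has a GC content of 47.0%. Capitals mark matches to the motifs searched, on either strand.
IKZF1 +0.4 kb promoter: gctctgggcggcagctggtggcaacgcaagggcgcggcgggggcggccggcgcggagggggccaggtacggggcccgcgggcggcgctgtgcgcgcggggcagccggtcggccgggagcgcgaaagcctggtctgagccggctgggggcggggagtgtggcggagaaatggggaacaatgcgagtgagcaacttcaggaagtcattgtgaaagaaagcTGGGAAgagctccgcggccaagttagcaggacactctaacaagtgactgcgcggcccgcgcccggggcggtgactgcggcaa
IKZF1 +4.7 kb promoter: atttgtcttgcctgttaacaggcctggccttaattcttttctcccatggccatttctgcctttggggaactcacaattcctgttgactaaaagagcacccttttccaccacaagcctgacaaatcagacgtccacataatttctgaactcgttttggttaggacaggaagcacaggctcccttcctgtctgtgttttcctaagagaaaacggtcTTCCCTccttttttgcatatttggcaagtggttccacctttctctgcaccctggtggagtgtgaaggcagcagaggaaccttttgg

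The motifs searched were TGGGAA and AGGGAA, the cores bound by Ikaros proteins, TGANTCA, bound by AP-1, CACGTG, the E-box, and the paired GAAA motif of IRF factors. The first window held 1 match to TGGGAA. The second held 1 match to AGGGAA, which reads TTCCCT on the printed strand. Of 35116 RefSeq promoter windows of the same length, 24.0% held TGGGAA, 25.2% held AGGGAA and 42.8% held either, so a match in a window is common. Neither window held any of the other motifs, and the IKZF2 window that shares 79 bp with the +0.5 kb peak (chr2:213152407-213152706, minus strand) held none of them.

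Library totals ranged from 1366628 counts in the JJN3 DMSO library to 5435673 in the KMS11 combination library, and all 4 JJN3 libraries but the pomalidomide one (3218581) were below every KMS11 library. On the CPM scale, which sets all libraries to the same size, a count is worth 0.752 in JJN3 DMSO and 0.178 in KMS11 with both drugs, which limits what can be seen at weak peaks in JJN3. All 18 peaks passed the filter of a mean CPM of at least 2, so none was left out. Of the plasma cell markers 7 of 8 had a promoter peak (TNFRSF17 had none), with a summed promoter level of 200 to 216 CPM in JJN3 and 202 to 232 in KMS11. Of the markers of other cells, 1 of 4 B cell, 1 of 4 T cell, 0 of 4 myeloid and 2 of 3 stromal markers had a promoter peak. Their summed levels in JJN3 and KMS11 were 0.97 to 3.85 and 9.7 to 10.1 for PAX5, the B cell marker found, 3.39 to 8.27 and 20.4 to 23.9 for BCL11B, the T cell one, and 13.5 to 19.9 and 30.3 to 55.1 for the stromal pair.

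At the level of whole genes, IKZF1 was more accessible in JJN3, IKZF3 was more accessible in KMS11, and the IKZF2 levels of the lines overlapped. Summed over its peaks and divided by their length, IKZF1 stood at 35.2, 43.95, 30.4 and 36.7 CPM per kb in JJN3 under DMSO, pomalidomide, GNE-781 and both drugs, and at 23.1, 20.4, 20.7 and 19.97 in KMS11. The lines did not overlap: the lowest JJN3 value lay above the highest of KMS11. IKZF3 stood at 16.3, 24.5, 22.4 and 32.99 in JJN3 and at 33.6, 43.6, 38.5 and 43.9 in KMS11, again without overlap and in the opposite order. IKZF2 stood at 37.3, 41.6, 36.7 and 36.9 in JJN3 and at 40.8, 28.9, 34.96 and 36.2 in KMS11, and these ranges overlap.

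Over the 4 treatments the order in JJN3 was IKZF2 (38.1 ± 2.3 CPM per kb, SD, n = 4), IKZF1 (36.6 ± 5.6) and IKZF3 (24.0 ± 6.91), and the first pair differed by less than their spread. In KMS11 the order was IKZF3 (39.9 ± 4.9), IKZF2 (35.2 ± 4.9) and IKZF1 (21.1 ± 1.41), and here IKZF3 and IKZF2 differed by no more than their SD. The spread is that over treatments, since a line and treatment had 1 library. By edgeR's quasi-likelihood test, adjusted over all gene sums by the Benjamini-Hochberg method, IKZF1 was higher in JJN3 by 0.81 ± 0.11 (log2 ± SE, adjusted p = 1.17e-08) and IKZF3 lower by 0.75 on the same scale (SE 0.10, adjusted p = 5.16e-09), while IKZF2 gave 0.14 ± 0.13 (adjusted p = 0.344). IKZF1 and IKZF3 passed the adjusted p, as 61% of all gene sums did, and both stayed under the 2-fold change that a call between lines also needed, which 23.1% of gene sums met.

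**Figure D1:**
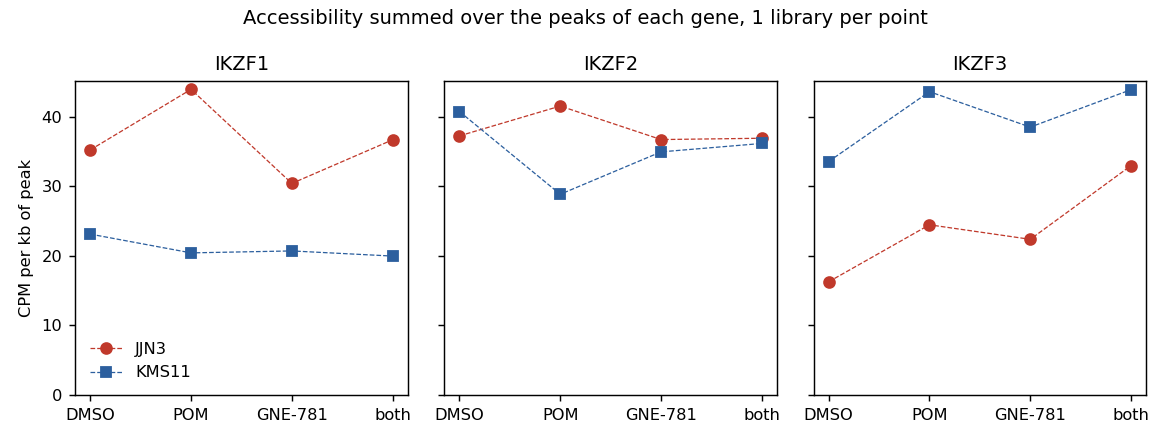
Accessibility summed over the peaks of each gene, in CPM per kb of peak (vertical axis), by treatment (horizontal axis); each point is 1 library, circles are JJN3, squares are KMS11, and dashed lines only join the points of a line. IKZF1 lies higher in JJN3 and IKZF3 higher in KMS11 under each treatment, and the highest IKZF3 value of JJN3, 32.99, is with both drugs.

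Under both drugs together, accessibility rose at the trio of peaks around the 3′ end of IKZF3 and fell at 1 peak inside IKZF1 and at 1 inside IKZF2. Of the 18 peaks 3 rose, 2 fell and 13 did not pass at an adjusted p under 0.05 (27.8% called, against 4.79% of all peaks tested, of which 2.11% rose and 2.67% fell), and the median log2 change was 0.113 against 6.27e-05 for all peaks. By gene, 3 of 9 IKZF3 peaks rose and 0 fell, 1 of 7 IKZF1 peaks fell and 0 rose, and 1 of 2 IKZF2 peaks fell. The drug comparisons share the DMSO libraries, so they are not separate observations of a peak.

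The +106.1 kb peak of IKZF3 stood at 9.77, 15.7, 6.41 and 22.8 CPM in JJN3 under DMSO, pomalidomide, GNE-781 and both drugs, and at 7.25, 16.1, 9.38 and 16.4 in KMS11. In either line the libraries with pomalidomide lay above those without it. With both drugs it rose by 1.22 ± 0.33 (adjusted p = 0.0171). The +108.1 kb peak stood at 18.8, 31.99, 17.3 and 55.8 CPM in JJN3 and at 37.8, 56.2, 43.01 and 53.6 in KMS11. Here too the libraries with pomalidomide were the higher ones in each line, and in JJN3 the combination was the highest. The rise with both drugs was 0.91 ± 0.23 (adjusted p = 0.0085).

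The +109.8 kb peak, the most accessible IKZF3 peak per length at a mean of 55.02 CPM per kb, stood at 22.6, 32.7, 35.3 and 44.1 CPM in JJN3 and at 50.99, 64.8, 74.4 and 73.2 in KMS11. It was lowest under DMSO in both lines, and its value with GNE-781 alone was above that with pomalidomide alone in both. Its rise with both drugs was 0.67 ± 0.20 (adjusted p = 0.0364). Against GNE-781 alone, the combination was higher at +108.1 kb by 0.82 ± 0.22 (adjusted p = 0.0448), the 1 peak of 18 called in that comparison (background 1.09%), and at +106.1 kb the difference was 1.18 ± 0.33 (adjusted p = 0.0520). At +109.8 kb the same difference was 0.11 ± 0.19.

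Within each line, where a ratio rests on 1 library against 1 and its 95% interval covers counting error only, the combination stood over DMSO at +106.1 kb by a ratio of 2.33 (1.24 to 4.698) in JJN3 and 2.26 (1.47 to 3.59) in KMS11. At +108.1 kb the ratio was 2.97 (1.91 to 4.78) in JJN3 and 1.42 (1.16 to 1.74) in KMS11. At +109.8 kb it was 1.96 (1.28 to 3.06) and 1.44 (1.21 to 1.71). All 6 intervals lay above 1, and the lines gave like ratios at +106.1 kb. These ratios come from libraries that also gave the calls, so they are no separate support for them. Summed over its 9 peaks, the trio among them, IKZF3 rose with both drugs by 0.64 ± 0.14 (adjusted p = 0.00423, against 3.49% of gene sums called), with a within-line log2 ratio of 1.01 in JJN3 and 0.39 in KMS11. Sums that leave out the trio were not called. They gave 0.67 ± 0.33 with promoter peaks only (edgeR, adjusted p = 0.363) and 0.61 ± 0.23 with peaks within 50 kb (adjusted p = 0.127). At +108.1 kb against GNE-781, the call was lost under DESeq2 (adjusted p = 0.392) and with relative log expression factors (edgeR, adjusted p = 0.0532). It was also lost without the JJN3 combination, JJN3 GNE-781, KMS11 pomalidomide or KMS11 GNE-781 library. The log2 differences were then 0.41, 0.57, 0.82 and 1.37, in that order. Without the JJN3 DMSO library, the shallowest, the sum of IKZF3 gave 0.49 ± 0.16 (adjusted p = 0.0680), and without the JJN3 combination library 0.45 ± 0.17 (adjusted p = 0.215) (0.00107 to 0.363 over its 17 alternatives). None of the trio was called by DESeq2 (adjusted p from 0.104 to 0.219), which called 0.633% of all peaks with both drugs. All 3 lost their call without the JJN3 combination library (1.01, 0.51 and 0.55 on the log2 scale, in the order of the peaks) and without the KMS11 DMSO library (1.00, 1.21 and 0.85), +108.1 and +109.8 kb also without the JJN3 DMSO library (0.75 and 0.56), and +106.1 and +109.8 kb without the KMS11 combination library (1.52 and 0.89), each with its direction kept. Over all alternatives the adjusted p ranged from 0.0122 to 0.400, from 0.00309 to 0.331 and from 0.0235 to 0.230.

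**Figure D2:**
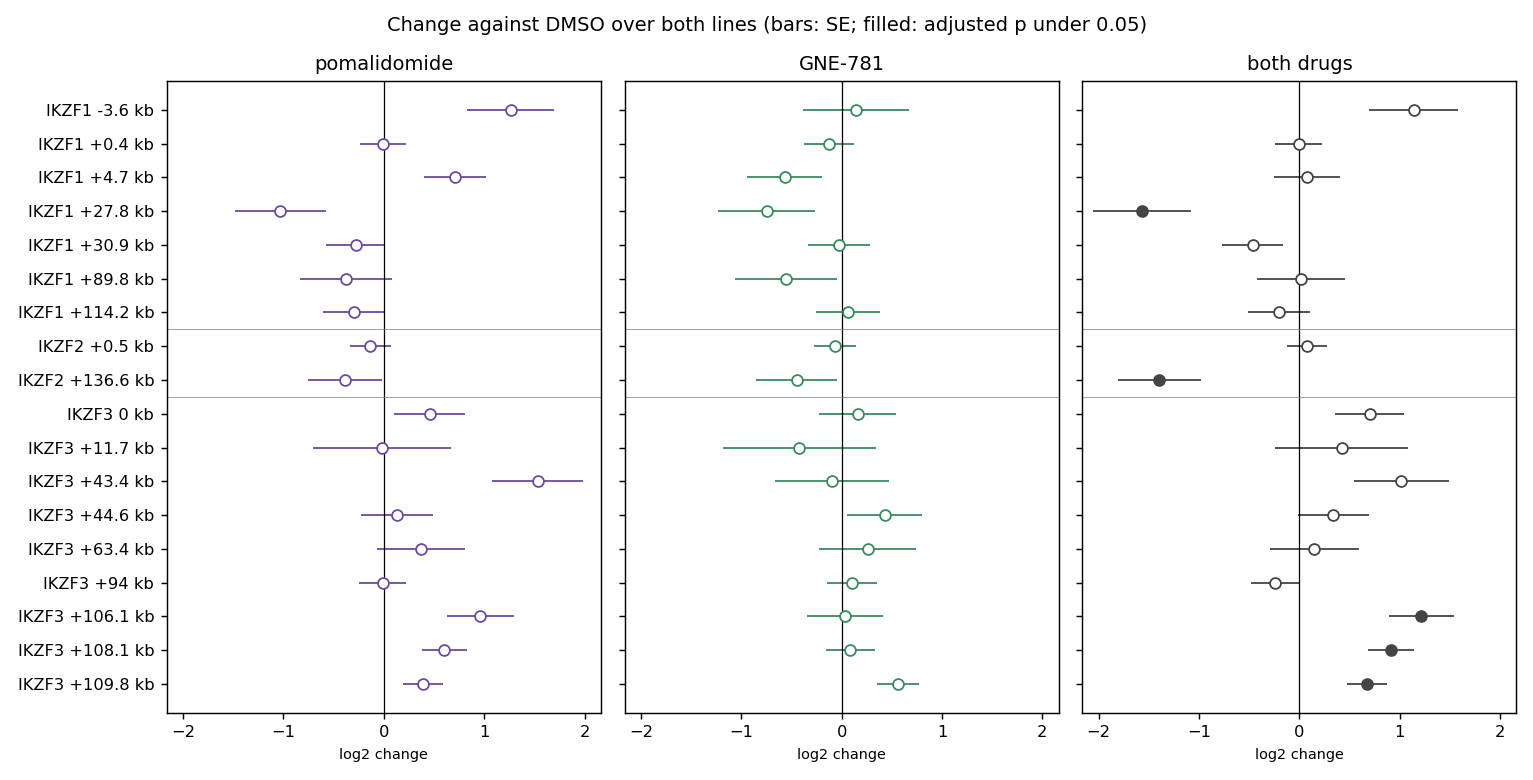
Log2 change of each of the 18 peaks against DMSO under pomalidomide, GNE-781 and both drugs, over both lines (horizontal axis; bars are SE, filled markers have an adjusted p under 0.05). The filled markers are the trio at the 3′ end of IKZF3, between 0.67 and 1.22, and the peaks at IKZF1 +27.8 kb and IKZF2 +136.6 kb, at -1.57 and -1.40, all with both drugs.

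The peak inside IKZF1 at +27.8 kb (chr7:50331819-50332015) was among the narrower and weaker ones. It stood at 15.8, 6.998, 7.05 and 4.85 CPM in JJN3 under DMSO, pomalidomide, GNE-781 and both drugs, and at 4.40, 2.36, 3.56 and 1.603 in KMS11. DMSO was the highest and the combination the lowest in both lines. Both drugs together gave a log2 change of -1.57 ± 0.49 (adjusted p = 0.0446), on counts of 21 under DMSO and 10 with both drugs in JJN3 and of 17 and 9 in KMS11.

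The peak inside IKZF2 at +136.6 kb stood at 16.5, 11.3, 8.98 and 4.36 CPM in JJN3 and at 6.47, 5.36, 6.14 and 3.21 in KMS11. Again DMSO was the highest and the combination the lowest in both lines, with ratios of 0.264 (0.107 to 0.596) in JJN3 and 0.495 (0.255 to 0.945) in KMS11. Both drugs together gave a log2 change of -1.40 ± 0.42 (adjusted p = 0.0348). Either fall lost its call when any 1 of the 4 DMSO or combination libraries was left out, and that at IKZF1 also without the JJN3 pomalidomide library (-1.57). In edgeR the IKZF1 call was lost as well with library totals only (-1.54, adjusted p = 0.0547). With only the 4 libraries compared it was lost too (-1.57, adjusted p = 0.0560). Over all alternatives the change ranged from -1.79 to -1.36 at IKZF1 (adjusted p 0.0395 to 0.299) and from -1.74 to -1.15 at IKZF2 (0.0300 to 0.265), where DESeq2 gave an adjusted p of 0.220.

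The promoters did not pass with both drugs. The IKZF1 promoter peak at +0.4 kb stood at 32.3, 38.3, 32.1 and 33.9 CPM in JJN3 and at 21.5, 18.2, 18.8 and 20.7 in KMS11, and its change with both drugs was -0.01 ± 0.23. The IKZF2 promoter peak stood at 36.1, 48.3, 42.96 and 47.5 CPM in JJN3 and at 51.5, 35.8, 43.98 and 48.6 in KMS11, with a change of 0.08 ± 0.20. In JJN3 its DMSO value was the lowest of the 4, and in KMS11 it was the highest. The IKZF3 promoter peak was weak, at 4.51, 10.7, 7.69 and 12.6 CPM in JJN3 and 9.84, 10.9, 9.70 and 13.2 in KMS11, with a change of 0.70 ± 0.35 (adjusted p = 0.278). It was highest with both drugs in either line, and in JJN3 it rested on 6 counts under DMSO.

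**Figure D3:**
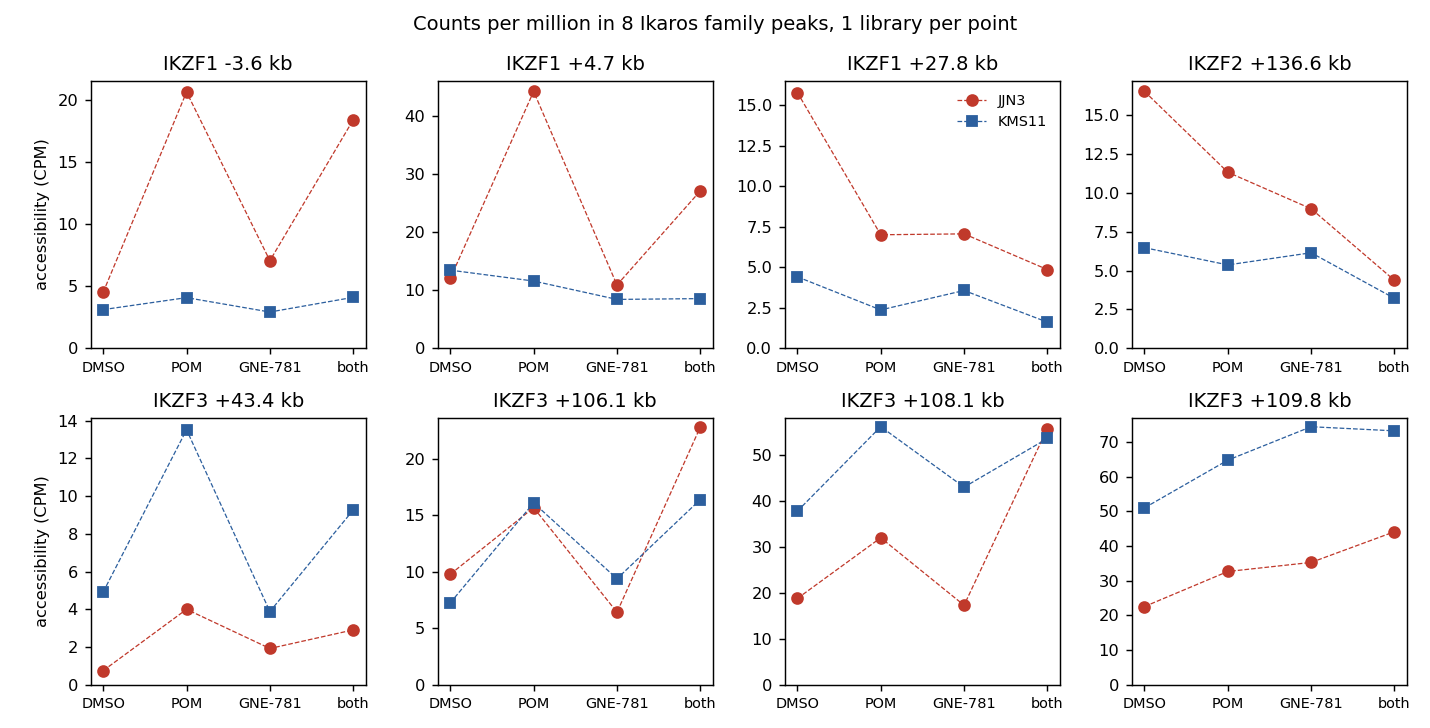
CPM (vertical axis) of the 8 peaks called in a drug comparison over both lines or within a line, by treatment (horizontal axis), 1 library per point, JJN3 as circles and KMS11 as squares; dashed lines only join the points of a line. The IKZF3 peaks at +106.1 and +108.1 kb are higher in the libraries with pomalidomide in both lines, and IKZF1 +4.7 kb is high in JJN3 with pomalidomide (44.3) and with both drugs (27.15).

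Pomalidomide alone changed none of the 18 peaks over both lines in edgeR's test (0 called, background 1.25%). At an unadjusted p under 0.05 there were 6 of 18, where 11.2% of all peaks tested were. DESeq2 also called 0 of 18, and 0.119% of all peaks. The nearest to a call was the peak inside IKZF3 at +43.4 kb (chr17:39820551-39820996), at 0.75, 3.999, 1.92 and 2.91 CPM in JJN3 and 4.92, 13.5, 3.88 and 9.26 in KMS11, with a change of 1.53 ± 0.45 (adjusted p = 0.0725). In JJN3 it held 1 count under DMSO and 12 with pomalidomide, so that line adds little. IKZF3 in sum gave 0.44 ± 0.14 (adjusted p = 0.155), where 0.595% of gene sums were called.

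GNE-781 alone called 0 of 18 (background 0.0209%), with 1 at an unadjusted p under 0.05 (6.58% of all peaks). That was IKZF3 +109.8 kb, at 0.56 ± 0.21 (edgeR, adjusted p = 0.534). Between the combination and pomalidomide 0 of 18 were called (background 0.0112%) by edgeR, with 2 at an unadjusted p under 0.05 (7.4% of all peaks). In both comparisons DESeq2 called 0 of all 62234 peaks, so its 0 of 18 adds nothing. The test of whether the combination departs from the sum of the single drugs on the log2 scale called 0 of 18 and 0 of all peaks with either tool, and 0 of the 18 had an unadjusted p under 0.05, as 2.64% of all peaks had. At the trio the departures were 0.22 ± 0.47, 0.22 ± 0.32 and -0.29 ± 0.28, so departures of these sizes could not be told from 0.

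Pomalidomide differed between the lines at IKZF1. In a model that gives each line its own effect of each drug and takes the drugs as additive within a line, the pomalidomide effect was larger in JJN3 than in KMS11 at the +4.7 kb promoter peak, by 1.73 ± 0.39 on the log2 scale (adjusted p = 0.0389), the 1 of 18 peaks called, against 0.0675% of all peaks. This peak stood at 12.03 CPM under DMSO, 44.3 with pomalidomide, 10.9 with GNE-781 and 27.15 with both drugs in JJN3, and at 13.5, 11.6, 8.41 and 8.55 in KMS11. Both JJN3 libraries with pomalidomide lay far above the other 6, which ranged from 8.41 to 13.5. The +0.4 kb promoter, whose sequence is printed above that of +4.7 kb, ranged from 32.1 to 38.3 CPM in JJN3, with a pomalidomide effect there of 0.17 ± 0.22 (adjusted p = 0.854).

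In JJN3 the effect at +4.7 kb was 1.62 ± 0.29 (adjusted p = 8.84e-05) and in KMS11 it was -0.11 ± 0.26 (adjusted p = 0.894). The within-line ratio to DMSO in JJN3 was 3.69 (2.19 to 6.64) with pomalidomide and 2.26 (1.28 to 4.22) with both drugs, from 133 and 56 counts against 16. The call of the line difference was lost under DESeq2 (adjusted p = 1), with library totals in place of scaling factors (0.0572) and without any 1 of 6 libraries, namely any of JJN3 or the DMSO or pomalidomide library of KMS11, with differences of 1.43 to 1.999 without 1 library and an adjusted p of 0.0328 to 1 over all alternatives. For this line difference DESeq2 called 0 of all 62234 peaks. The intergenic peak at -3.6 kb behaved alike in JJN3, at 4.51, 20.7, 7.05 and 18.4 CPM, and stood at 3.11, 4.07, 2.91 and 4.096 in KMS11. Its pomalidomide effect was 1.74 ± 0.39 in JJN3 (adjusted p = 0.00408) and 0.43 ± 0.42 in KMS11, and the difference of 1.30 ± 0.60 did not pass (adjusted p = 0.571).

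In all, pomalidomide raised 4 of 18 peaks in JJN3 (background 1.77% called, 1.22% higher) and 2 of 18 in KMS11 (background 6.41% called, 4.59% higher). It lowered 0 of 18 in either line, where 0.553% of all peaks in JJN3 and 1.83% in KMS11 were lower. In JJN3 these were both IKZF1 peaks just described, and IKZF3 +106.1 kb (1.25 ± 0.35, adjusted p = 0.0333) and +108.1 kb (1.27 ± 0.25, adjusted p = 0.000663). In KMS11 they were IKZF3 +106.1 kb (0.97 ± 0.26, adjusted p = 0.00918) and +43.4 kb (1.36 ± 0.34, adjusted p = 0.0043). The +106.1 kb peak was thus called in each line, and its line difference was 0.28 ± 0.45 (adjusted p = 0.940). In sum, IKZF3 rose with pomalidomide in JJN3 by 0.57 ± 0.14 (adjusted p = 0.0184, background 1.11%), and gave 0.28 ± 0.11 in KMS11 (adjusted p = 0.161, background 4.13%). The difference of 0.29 ± 0.18 did not pass (adjusted p = 0.765, background 0.0683%). GNE-781 within a line called 0 of 18 in JJN3 (background 0.172%) and 0 of 18 in KMS11 (background 1.57%). At an unadjusted p under 0.05 there were 5 and 2, where 10% and 12.4% of all peaks were. The GNE-781 effect differed between lines at 0 of 18 peaks by edgeR (background 0.00964%), with 1 at an unadjusted p under 0.05 (7.14% of all peaks). In these GNE-781 tests DESeq2 called 0 of all 62234 peaks. DESeq2 called none of the line-specific rises with pomalidomide, where it called 0.00964% of all peaks in JJN3 and 0.23% in KMS11. These rises rest on 4 libraries per line. Leaving out any 1 library of the line ended the call at +106.1 kb in either line (0.68 to 1.83 in JJN3, 0.79 to 1.15 in KMS11) and at IKZF1 -3.6 kb (1.38 to 2.19), the DMSO or pomalidomide library did so at IKZF1 +4.7 kb (1.32 in both cases), the GNE-781 or combination library at IKZF3 +108.1 kb in JJN3 (0.77 in both cases), and the DMSO, pomalidomide or combination library at +43.4 kb in KMS11 (1.23 to 1.45).

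**Figure D4:**
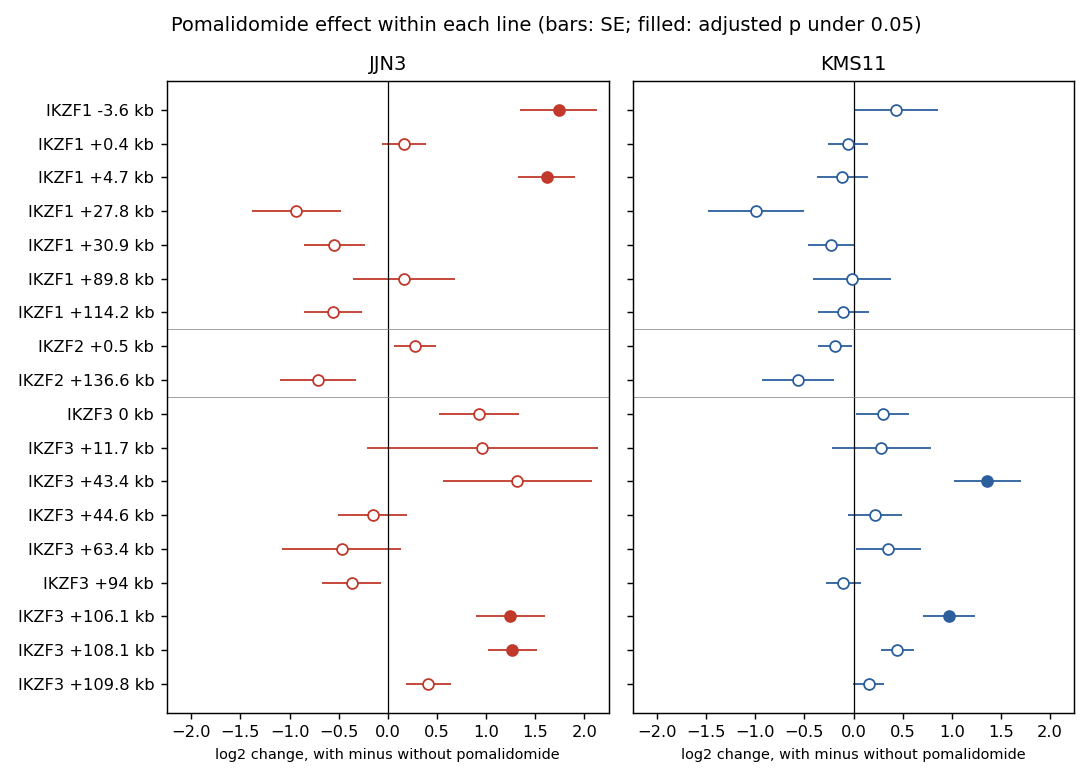
Pomalidomide effect on each of the 18 peaks within JJN3 and within KMS11, as the log2 change of libraries with pomalidomide against those without (horizontal axis; bars are SE, filled markers have an adjusted p under 0.05). IKZF1 -3.6 and +4.7 kb are filled in JJN3, at 1.74 and 1.62, and lie at 0.43 and -0.11 in KMS11, and IKZF3 +106.1 kb is filled in both.

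Between the lines, 3 of 7 IKZF1 peaks were higher in JJN3 and 4 of 9 IKZF3 peaks were higher in KMS11, and 0 of 2 IKZF2 peaks passed. At an adjusted p under 0.05 and at least 2-fold, 7 of 18 peaks differed (38.9%, background 31.9%), so the share called was near that of all peaks. Of these, 3 were higher in JJN3 (background 16.1%), all in IKZF1, and 4 were lower (background 15.8%), all in IKZF3. By the adjusted p alone 12 of 18 passed, against 54.2% of all peaks.

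For IKZF1, the -3.6 kb peak was higher in JJN3 by 1.83 ± 0.29 (adjusted p = 2.98e-07), the +27.8 kb peak by 1.52 ± 0.35 (adjusted p = 0.00017) and the +4.7 kb peak by 1.18 ± 0.23 (adjusted p = 1.65e-05). At -3.6 kb JJN3 and KMS11 stood at 4.51 and 3.11 CPM under DMSO and at 7.05 and 2.91 with GNE-781. They stood at 20.7 and 4.07 with pomalidomide and at 18.4 and 4.096 with both drugs. The gap was wider in the libraries with pomalidomide, but the test of that line difference did not pass (1.30 ± 0.60, edgeR, adjusted p = 0.571). At +4.7 kb KMS11 was slightly the higher line under DMSO, and the difference fell under 2-fold when either line's pomalidomide or combination library was left out (lowest value 0.77). The +0.4 kb promoter, at 32.1 to 38.3 CPM in JJN3 and 18.2 to 21.5 in KMS11, was higher by 0.80 ± 0.17 (adjusted p = 3.99e-05). Its groups did not overlap, although it stayed under 2-fold.

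For IKZF3, the widest peak of the set, at +94 kb (chr17:39769642-39770758), stood at 15.8, 16.3, 19.2 and 10.7 CPM in JJN3 and at 38.3, 37.1, 38.8 and 34.7 in KMS11. Every JJN3 value was less than the lowest of KMS11, and the peak was lower by 1.28 (SE 0.18, adjusted p = 8.05e-09). The peaks at +43.4 and +11.7 kb gave -1.70 ± 0.36 (adjusted p = 6.08e-05) and -1.70 ± 0.56 (adjusted p = 0.00787), and that at +63.4 kb -1.24 ± 0.34 (adjusted p = 0.00169). In the trio, +109.8 kb gave -0.97 ± 0.14 and +108.1 kb -0.65 ± 0.16, both past the adjusted p and under 2-fold, and +106.1 kb, slightly the higher in JJN3, gave 0.14 ± 0.23. The IKZF3 promoter did not pass (-0.27 ± 0.25, adjusted p = 0.370). IKZF2 had no call between lines: its promoter gave 0.00 ± 0.15 and the +136.6 kb peak 0.92 ± 0.29 (adjusted p = 0.0053).

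**Figure D5:**
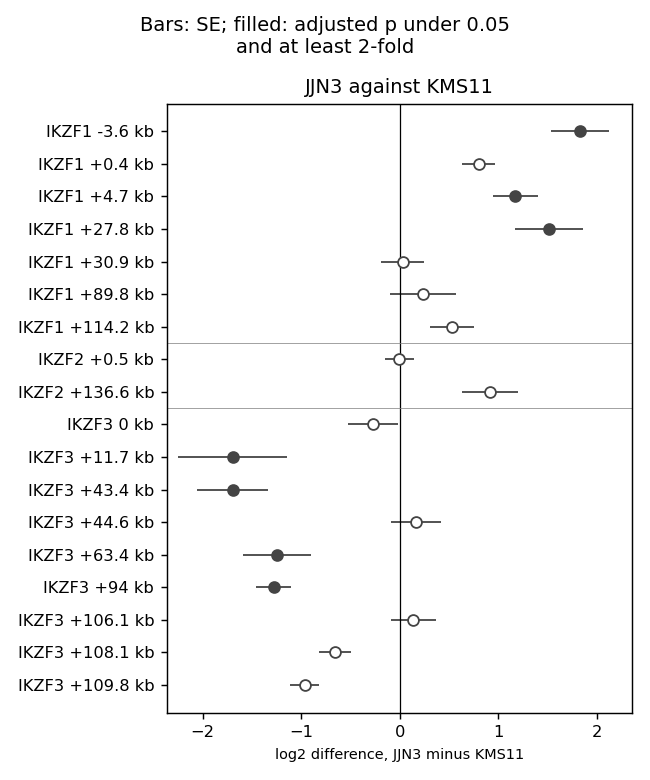
Log2 difference between JJN3 and KMS11 for each of the 18 peaks over 4 libraries per line (horizontal axis). Bars are SE, and filled markers have an adjusted p under 0.05 and at least 2-fold. Filled markers right of 0 are IKZF1 peaks, up to 1.83, and those left of 0 are IKZF3 peaks, down to -1.70.

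Most peaks around IKZF1 and IKZF3, though not all, had line differences on the same side of 0 as the median of these genes, with 7 of 10 above 0 near IKZF1 and 30 of 31 below 0 near IKZF3, where the exception was the ZPBP2 promoter (0.70 ± 0.22, adjusted p = 0.00548). The median log2 difference of the IKZF1 peaks was 0.80, and that of the other 10 peaks within 250 kb was 0.99, of which 5 were higher in JJN3 and 0 lower. Within 5000 kb the median was 0.21 over 226 peaks. For IKZF3 the median of its 9 peaks was -0.97, that of the other 31 peaks within 250 kb -0.67, of which 9 were lower and 0 higher, and that of 399 peaks within 5000 kb -0.62, with 97 lower and 2 higher. Around IKZF2, whose peaks had a median of 0.46, it was 0.13 over 9 peaks within 250 kb and -0.33 over 157 within 5000 kb. Over the whole of chromosome 17 the median was -0.27 and over all peaks -0.08. The part that DNA copy number or the wider region has in the differences at these genes was not tested.

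Few neighbouring peaks of the genes were called with the drugs, as was so over all peaks. The background was 4.79% with both drugs, 1.25% with pomalidomide and 0.0209% with GNE-781, so these counts say little about the neighbours. Within 250 kb, both drugs together called 0 of 10 peaks at IKZF1, 0 of 9 tested at IKZF2, and 1 of 31 at IKZF3, a rise of 1.14 ± 0.32 (adjusted p = 0.0242) at a peak of RP11-749I16.3 (chr17:40111434-40112000). Pomalidomide alone and GNE-781 alone called none of these peaks. The uncalled peaks around IKZF2 were mostly lower with both drugs, with 8 of 9 below 0. Their median log2 change was -0.92, against 6.27e-05 for all peaks, on the same side of 0 as the IKZF2 peak at +136.6 kb. The medians around IKZF1 and IKZF3 were 0.00 and 0.04, with 5 of 10 and 11 of 31 below 0. At GRB7, the gene next to the trio, the peaks were among the most different between the lines, with -2.07 and -2.03.

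Gene lists of the pathway, chosen with earlier results of these data known, held 0 or 1 call each with both drugs, where the background was 4.79%. Counts this small cannot set a list apart from that share. The other Ikaros family genes IKZF4 and IKZF5 had 0 of 2 peaks called. Among genes described as downstream of Ikaros and Aiolos in myeloma, such as IRF4, MYC, PRDM1 and BST2, 0 of 29 peaks were called, with a median of -0.08. EP300 and its partners had 0 of 8, and EP300 itself had no peak under its name. The cereblon ligase had 1 rise in 9 peaks, at an intergenic peak 35182 bp from the annotated start of DDB1, which links cereblon to the ligase. The DDB1 peak rose by 3.01 ± 0.43 (edgeR, adjusted p = 4.64e-06) with both drugs and by 2.98 ± 0.43 (adjusted p = 1.52e-05) with pomalidomide alone. Corepressor genes had 1 rise in 46, inside CHD4 (chr12:6603095-6603500), the ATPase of the NuRD complex, of 1.63 ± 0.40 (adjusted p = 0.00865). Other proteins that cereblon drugs can direct to degradation had 1 rise in 14, in ZBTB16 (chr11:114149709-114150291), which encodes the zinc finger repressor PLZF. That peak rose by 3.09 ± 0.49 (adjusted p = 3.05e-05) with both drugs and by 2.48 ± 0.51 (adjusted p = 0.00354) with pomalidomide alone. No peak of these lists fell with both drugs. Of the 28 peaks of the plasma cell markers 3 fell and 0 rose with both drugs, all at SDC1, the syndecan CD138 of plasma cells, by -0.69 to -1.38, and their part in the changes at the Ikaros genes was not tested.

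The gene sums whose pattern over the treatments was most like each member's, by Pearson's correlation of log2 CPM centred within each line over 8 libraries and 14476 sums, are given as a description. For IKZF3 they were ZNF658 (r = 0.992), GLTSCR1, TRIM40, AP000304.12 and AP5B1 (0.988). For IKZF1 they were KANK1 (0.983), SLC39A4, RP11-126O1.5, DCUN1D1 and POC1B-GALNT4 (0.960), and for IKZF2 CTD-2201E18.3 (0.976), DNAJB14, RPS14, RP11-293A21.1 and RP11-680B3.2 (0.936). The points share libraries and depth, and 8 points among so many sums give high values readily. Between the members, r was 0.05 for IKZF1 and IKZF3, 0.55 for IKZF1 and IKZF2 and -0.26 for IKZF2 and IKZF3.

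The other peaks had no call in any treatment comparison. In IKZF1, those at +30.9 and +89.8 kb ranged over the libraries from 11 to 20.3 and from 3.21 to 7.52 CPM. The +114.2 kb peak, the most accessible of IKZF1 per length at a mean of 43.4 CPM per kb, stood at 20.3, 16, 20.5 and 11.6 CPM in JJN3 and at 11.7, 9.43, 12.3 and 13 in KMS11, and was lowest with both drugs in JJN3 but highest with them in KMS11. In IKZF3, the +44.6 kb peak stood between 6.01 and 19.2 CPM, the latter in JJN3 with GNE-781. The +63.4 kb peak stood between 1.94 and 5.77 CPM in JJN3 and between 6.47 and 9.004 in KMS11, without overlap. The +11.7 kb peak had 0 counts in JJN3 with GNE-781, which by 3 counts allows up to 1.92 CPM there, and at most 4.45 CPM in KMS11.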

How the data were processed

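ATAC-seq was done on 8 libraries, 1 per line and treatment, grouped by the cell line and treatment labels. The authors deposited 1 table of raw counts per peak and library over 62528 peaks, named as a union of MACS2 peaks at q 0.01, with the annotated transcript of each peak. Per the submitters' processing notes reads were handled with Bowtie2 (2.3.5.1), MACS2 (2.1.1.20160309), SAMtools (1.10), Trim Galore (0.6.4), cutadapt (2.5) and R (4.1.2) on GRCh38. How duplicates, mitochondrial reads and the transposase offset were treated is not given in the sources used here. PCR copies would make the counting error look smaller than it is, and a union of peaks favours the deeper libraries.

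From these counts, peaks whose mean CPM reached 2 (62234, with 294 removed) were tested in R 4.3.3 by edgeR 4.0.16 (quasi-likelihood, TMM scaling factors), with line and treatment as terms, which leaves 3 residual degrees of freedom beside 62.8 borrowed from all peaks. The method was tested on simulated data. All tests were two-sided, p-values were adjusted by Benjamini-Hochberg over all peaks, or over 24872 sums of the counts of all peaks of a symbol, and a call needed an adjusted p under 0.05, and between lines also 2-fold. A second model gave each line its own effect of each drug, with 2 residual degrees of freedom; the differences between lines in single peaks were planned, and the effects within a line, and all values of this model for gene sums, were added after the data were seen. The lines are the only replicates of a treatment, and the labels do not say that libraries came from separate cultures. The p-values only set a change against how far these libraries depart from the fitted terms, a spread mostly borrowed from all peaks. That spread may be technical. CPM values use the scaled library sizes, and SE is the log2 change divided by the root of the F statistic.

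The members and gene lists were chosen with earlier results of these data known. The rule for named peaks was every member called in a planned comparison, the promoter peaks and the 2 peaks per gene with the highest CPM per kb, and the peaks called only within a line are named beside these. Alternatives were DESeq2 1.42.0, other scaling factors, other filters, fewer libraries, each library left out in turn, and, for sums, only promoter, distal or near peaks.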

Additional observations from a re-analysis of the deposited data

Results flagged for a closer look

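The pomalidomide effect at the IKZF1 +4.7 kb promoter peak was larger in JJN3 than in KMS11 by 1.73 ± 0.39 on the log2 scale (edgeR, adjusted p = 0.0389), and of the 18 peaks it was the 1 that passed the test of this difference. The JJN3 libraries with pomalidomide stood at 44.3 and 27.15 CPM against 12.03 and 10.9 without it, and the 4 KMS11 libraries ranged from 8.41 to 13.5.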

How the results depend on the processing

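No result changed direction while past a threshold. With DESeq2, 0 of the 18 peaks were called with both drugs against DMSO (0.633% of all peaks, against 4.79% by edgeR) and 0 against GNE-781 (0.146%). It also called 0 of 18 with pomalidomide within JJN3 (0.00964% of all peaks) or KMS11 (0.23%). In the line difference of the pomalidomide effect it called 0 of all peaks, so its 0 of 18 says nothing about the members. The cause of the fewer calls was not tested. Leaving out 1 library at a time, the calls ranged from 0 to 5 with both drugs against DMSO (5 with all libraries), from 0 to 2 against GNE-781 (1), from 0 to 1 in the line difference (1), from 1 to 4 with pomalidomide in JJN3 (4) and from 0 to 2 in KMS11 (2), and for the gene sums with both drugs from 0 to 1 (1); fewer samples enter these fits. Over all peaks, the calls with both drugs against DMSO also fell when any of the DMSO or combination libraries was left out. Against GNE-781 there were 0 calls with relative log expression factors (1.06% of all peaks). There were 2 at a mean CPM of at least 5 (1.36%) and 2 with the 4 libraries compared alone (1.83%). The line difference had 0 calls with library totals (0.0482% of all peaks). Between lines 12 of 18 passed without the 2-fold change. Of the gene sums, 0 passed with promoter peaks only, 0 within 50 kb and 2 outside promoters, where IKZF2 gave -1.38 (adjusted p = 0.0310) on its 1 distal peak. Between the lines, IKZF3 +63.4 kb fell just under 2-fold without either combination library (-0.9958 and -0.9969). IKZF1 -3.6 and +27.8 kb and IKZF3 +11.7, +43.4 and +94 kb were called under every alternative that gave them a value. No alternative left out both JJN3 libraries with pomalidomide, where IKZF1 -3.6 kb was high. Of 2604 values of single results, 2517 kept their side of the threshold and direction where called, 73 lost a call and 14 gained one. Most of these values belong to results not called with all libraries, which had no call to lose. The 2517 therefore says little about how stable the calls are. DESeq2 gave no adjusted p for some weak peaks, IKZF1 +27.8 kb among them. The line term already pairs the treatments within each line. No finer pairing was possible because the labels carry no replicate numbers. With 0.752 CPM per count in JJN3 DMSO, depth limits the weak IKZF3 peaks there.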
